A study of Mus musculus with 48 samples.

Results

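The hepatic SREBP control genes studied here were Srebf1, Srebf2, Scap, Insig1, Insig2, Mylip and Stard4. They belong to the machinery that controls the SREBPs and the low-density lipoprotein receptor, a choice made with earlier results of these data known, and were matched by gene symbol. All 7 were found on the array with 13 probe sets, out of 18193 genes and 45037 probe sets tested. Livers came from male C57BL/6J mice that had all been made obese on L-P/C-HF, a high-fat diet with little protein relative to carbohydrate, and the mice with the poorest glucose tolerance had been kept for the study. One set of mice then received H-P/C-HF, in which protein replaced part of the carbohydrate at the same fat content. The other set stayed on L-P/C-HF, and livers were taken 4-wk or 2-d after the switch. Both diets are called here by their sample labels, HPHC for the one rich in protein and HFHC for the other, and this match rests on the words of the labels. The 4 groups were HPHC 4-wk (n = 12), HFHC 4-wk (n = 12), HPHC 2-d (n = 11) and HFHC 2-d (n = 12), with 1 array and 1 liver per mouse. Array B25 of the HPHC 2-d group, an outlier in the quality tests of the arrays, was left out. The 4-wk mice were also older, had gone through a further glucose tolerance test after an overnight fast, and were killed on another day. Duration, age, this test and day of death therefore cannot be told apart. Within HFHC, duration means a longer time on an unchanged diet. Whether the mice were fed or fasted at death is not given in the sources used here.

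Srebf1 and Srebf2 encode sterol regulatory element binding proteins (SREBPs), transcription factors made as precursors in the membrane of the endoplasmic reticulum. When membrane sterols are low, the escort protein SCAP carries the precursor to the Golgi, where proteases release the active part, and when sterols are high the INSIG proteins hold SCAP and its cargo back. In the liver SREBP-2 mainly drives genes of cholesterol synthesis and uptake and SREBP-1c those of fatty acid synthesis, so that much of the control lies in protein processing that mRNA levels do not show. Mylip (also called IDOL) encodes a ubiquitin ligase that marks the low-density lipoprotein receptor for degradation, and Stard4 a small carrier that moves cholesterol between membranes.

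Promoter sequences of 6 members were read from RefSeq, and 3 are printed because the results turn on these genes. Srebf2 had the lowest p in the diet comparison among the brightest probe sets, Insig1 varied with the cholesterol synthesis genes across mice, and Mylip changed most with duration among the brightest probe sets. Each run covers 250 bases before to 50 after the annotated start, on the strand of the gene and in build GRCm38.p6. Capitals mark matches to CCAAT (or ATTGG on the other strand), the box bound by NF-Y, to CACGTG, an E-box, and to TCACCCCA.
Srebf2 (chr15:82147019-82147318, plus strand): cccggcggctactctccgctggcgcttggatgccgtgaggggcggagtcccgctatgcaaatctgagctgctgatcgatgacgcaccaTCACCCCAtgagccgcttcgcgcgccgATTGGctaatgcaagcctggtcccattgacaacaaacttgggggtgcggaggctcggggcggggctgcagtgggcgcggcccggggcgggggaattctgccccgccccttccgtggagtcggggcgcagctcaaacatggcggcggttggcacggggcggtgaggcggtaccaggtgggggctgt
Insig1 (chr5:28071162-28071461, plus strand): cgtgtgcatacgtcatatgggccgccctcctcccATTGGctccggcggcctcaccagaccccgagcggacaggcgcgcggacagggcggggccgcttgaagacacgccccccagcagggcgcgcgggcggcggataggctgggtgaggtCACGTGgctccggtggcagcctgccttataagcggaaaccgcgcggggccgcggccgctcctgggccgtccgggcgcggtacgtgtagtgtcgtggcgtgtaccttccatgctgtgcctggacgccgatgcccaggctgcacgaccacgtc
Mylip (chr13:45389492-45389791, plus strand): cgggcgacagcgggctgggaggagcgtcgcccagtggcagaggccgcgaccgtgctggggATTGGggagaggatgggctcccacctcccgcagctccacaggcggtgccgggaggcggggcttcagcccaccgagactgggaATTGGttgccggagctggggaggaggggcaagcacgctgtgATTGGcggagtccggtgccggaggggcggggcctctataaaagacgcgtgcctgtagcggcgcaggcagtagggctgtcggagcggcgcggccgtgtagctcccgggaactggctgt

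The 9-letter core of a sterol regulatory element, TCACCCCAC, was searched on both strands together with TCACNCCAC, which includes it. Neither was found in the 11 windows read for the 6 members, and over all 32817 promoters of this length 0.552% and 1.24% held them. The shorter TCACCCCA, added after the Srebf2 window had been seen, starts 162 bases before the start of Srebf2 and occurs in 1.56% of all promoters. A match to CCAAT lies 135 bases before the start in Srebf2, 216 bases before it in Insig1, and at 190, 108 and 67 bases before it in Mylip, and 37.4% of all promoters hold this box. Insig1 also holds CACGTG at 101 bases before its start, which 7.15% of promoters do. The Sp1-type box GGGCGG, not capitalised, was found in each of the 3 windows and in 35.6% of all promoters. A match is a string of letters and not a measured binding site.

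By RefSeq the members lie on chromosomes 11 (Srebf1), 15 (Srebf2), 9 (Scap), 5 (Insig1), 1 (Insig2), 13 (Mylip) and 18 (Stard4). The array values are the deposited log2 values, and levels are not compared between probe sets. Array medians lay between 6.73 and 6.91, and the mean correlation of an array with the others lay between 0.976 and 0.991 in the 47 arrays used and at 0.976 in B25. An RNA quality measure, the 3′ minus 5′ control signal, moved with duration, with medians of 0.245 and 0.243 in HPHC and HFHC livers at 4-wk and 0.45 and 0.44 in the same diets at 2-d. The 8 hepatocyte markers had a median summed level of 16.95 in HPHC and 16.95 in HFHC livers at 4-wk, against 16.99 and 16.97 at 2-d. In whole liver, fewer cells of a type and less RNA per cell cannot be told apart.

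Neither diet comparison gave an SREBP control gene past the threshold, whereas 4-wk livers had more Mylip mRNA than 2-d livers on both diets. Insig2 also passed as higher at 4-wk on both diets, but only on its brightest probe set. In limma with Benjamini-Hochberg adjustment over all probe sets, 0 of the 13 probe sets passed for diet at 4-wk and 0 of 13 at 2-d, where 0.0% and 0.0133% of all probe sets did. For 4-wk against 2-d, 4 of 13 passed within HPHC and 3 of 13 within HFHC, all higher at 4-wk, where 6.69% and 6.87% of all probe sets passed in either direction and 4.71% and 5.39% passed upward. The difference of the 2 diet effects passed for 0 of 13, with 0.0% of all probe sets. One-way ANOVA with the same adjustment also called 0 members for diet at either duration.

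**Figure D1:**
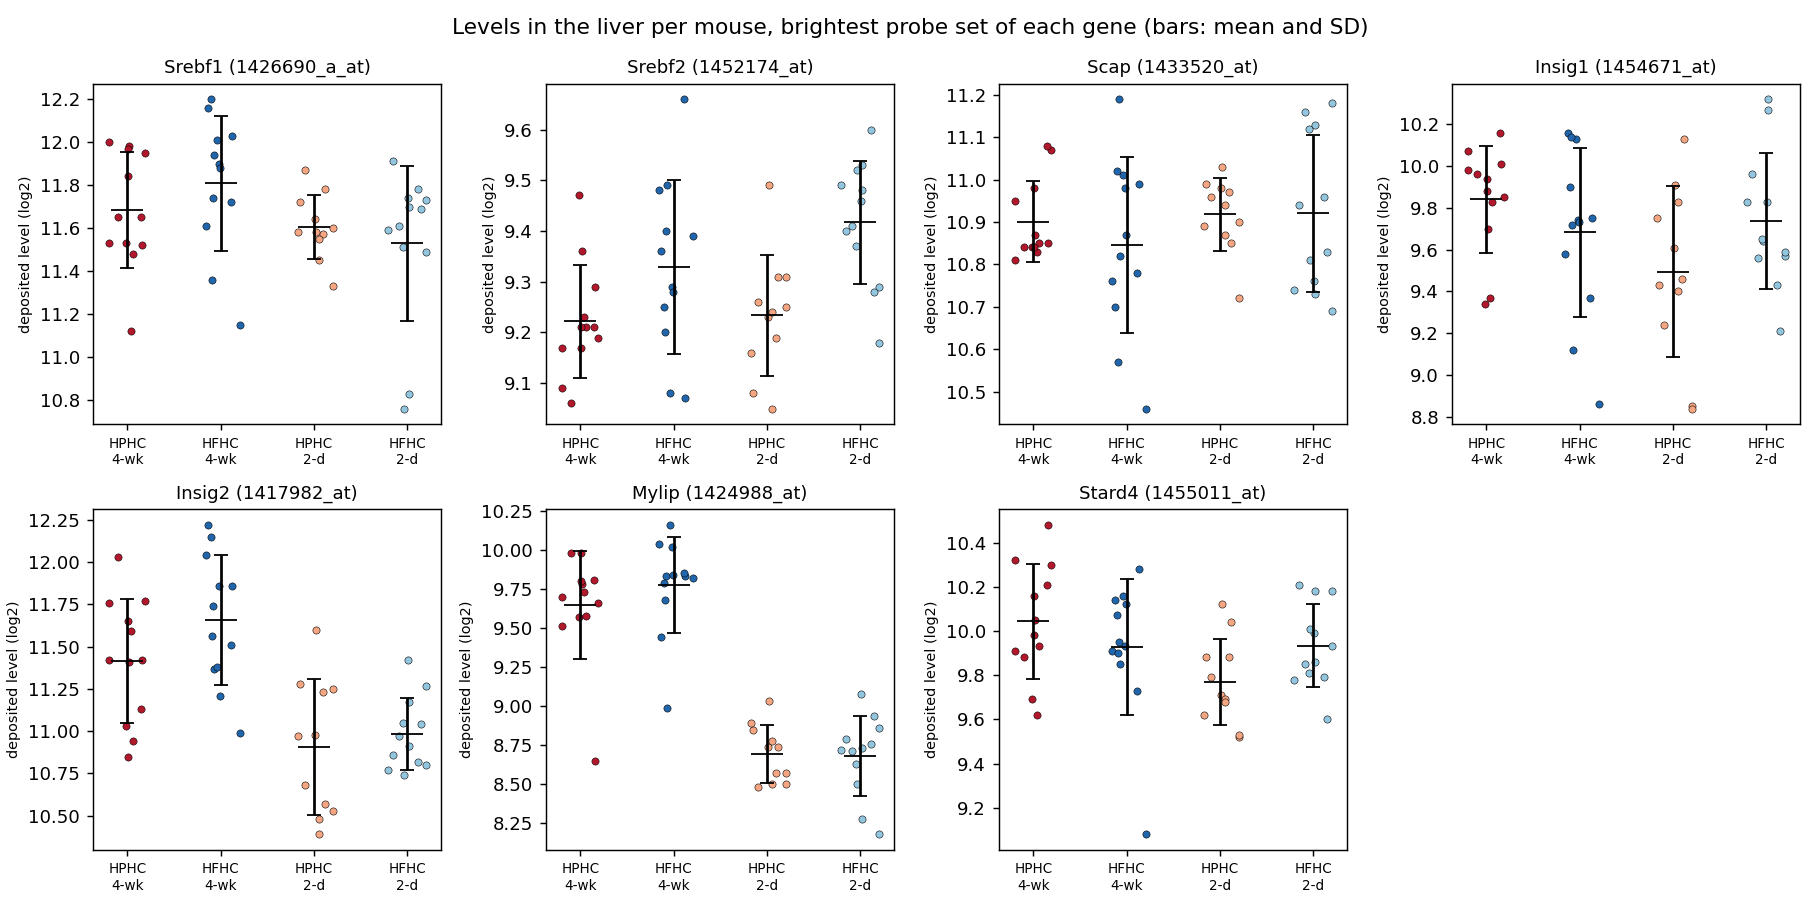
Deposited log2 level (vertical axis) of the brightest probe set of each gene, with 1 point per mouse and bars for the mean and SD of each group. Mylip and Insig2 lie higher in the 4-wk groups on the left than in the 2-d groups on the right, while the diets overlap in every panel.

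**Figure D2:**
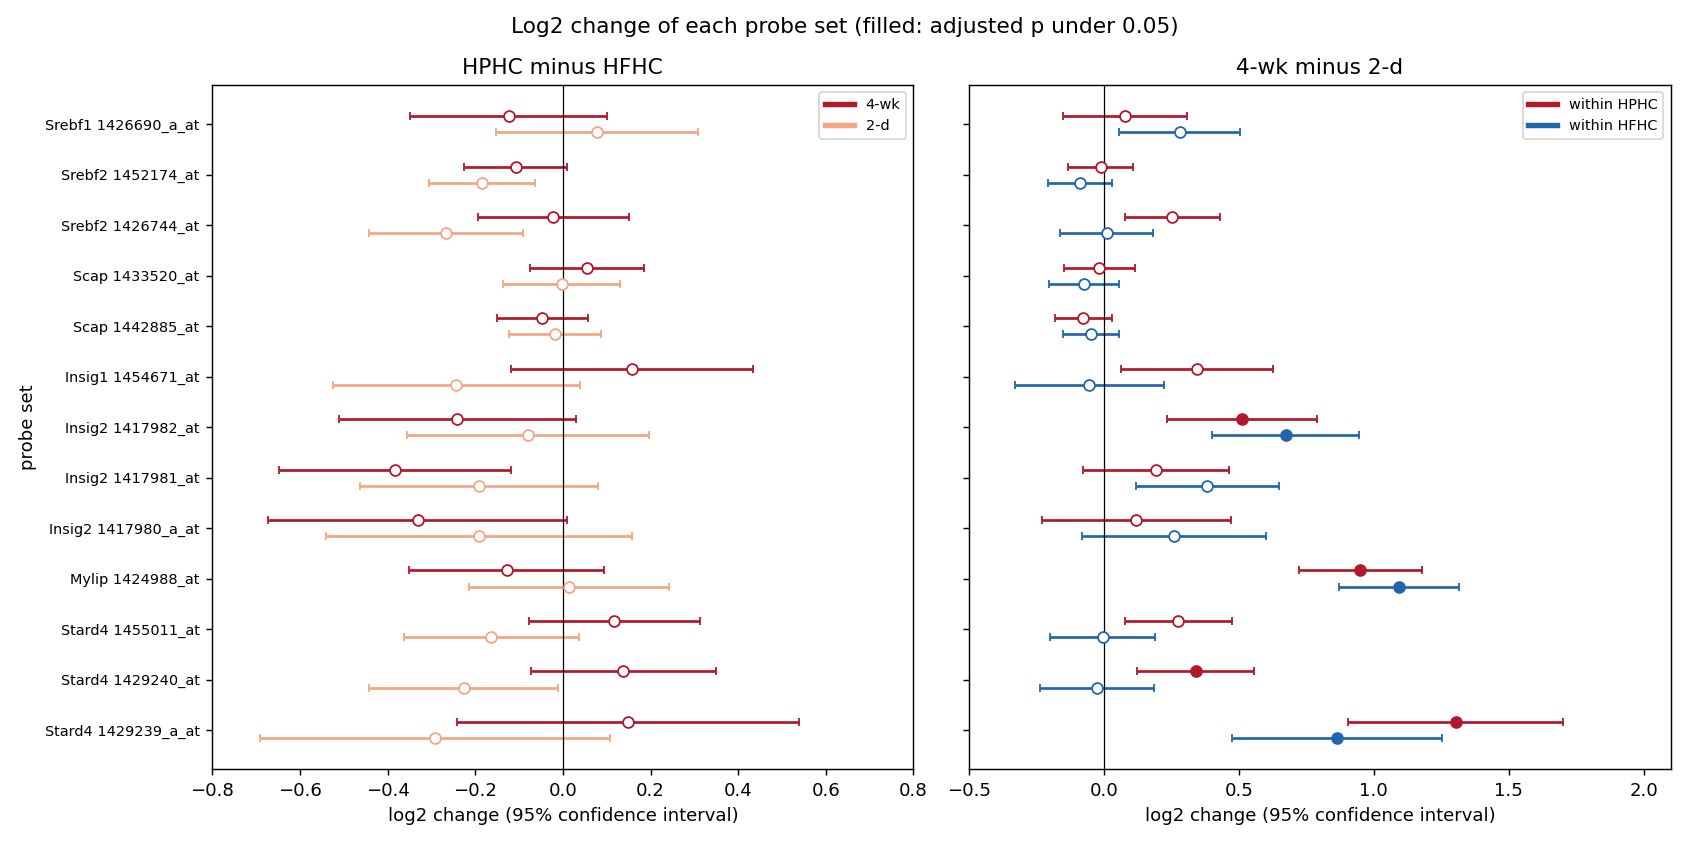
Log2 change of all 13 probe sets with 95% confidence intervals, for diet (left) and for duration (right), filled where the adjusted p was below 0.05. No point on the left is filled, and the filled points on the right belong to Insig2, Mylip and Stard4.

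Srebf1, whose liver product SREBP-1c drives fatty acid synthesis, differed little between groups. At 4-wk its level ran from 11.12 over a median of 11.65 to 12 in HPHC livers, and from 11.15 over 11.89 to 12.2 in HFHC livers. At 2-d it ran from 11.33 over 11.58 to 11.87 in HPHC and from 10.76 over 11.65 to 11.91 in HFHC livers. The groups overlapped throughout, and the 2 lowest values of all were those of HFHC 2-d mice A06 and A09, at 10.76 and 10.83. The diet effect was a log2 change of -0.12 ± 0.11 (SE) at 4-wk and 0.08 ± 0.11 at 2-d (adjusted p = 0.999 and 1.0 in limma). Within HFHC the 4-wk mean lay 0.28 ± 0.11 above the 2-d mean, which did not pass (adjusted p = 0.139).

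Srebf2, the activator of cholesterol synthesis, lay lower in HPHC than in HFHC livers at 2-d by both probe sets without passing the adjusted threshold. Across the 47 mice, as deviations from group means, these 2 probe sets did not follow each other (r = 0.008), so that each is described on its own. On the brighter one, 1452174_at, levels at 2-d ran from 9.05 over a median of 9.24 to 9.49 in HPHC livers and from 9.18 over 9.44 to 9.60 in HFHC livers. The groups overlapped, but 10 of 11 HPHC mice lay below the HFHC median and 3 were below every HFHC mouse. The log2 change was -0.18 ± 0.06 (SE), with an unadjusted p of 0.00355 and an adjusted p of 1.0 in limma. The other probe set, 1426744_at, gave -0.27 ± 0.09 (unadjusted p = 0.0038, adjusted p = 1.0 in limma), and all 11 HPHC mice lay below the HFHC median.

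At an unadjusted p below 0.05, 3 of 13 probe sets were lower for diet at 2-d, those of Srebf2 and Stard4 1429240_at, against 1.62% of all probe sets. At 4-wk 1 of 13 was lower, Insig2 1417981_at, against 1.8% of all.

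After 4-wk the brighter Srebf2 probe set ran from 9.06 over 9.21 to 9.47 in HPHC livers and from 9.07 over 9.33 to 9.66 in HFHC livers. The lowest values were alike on both diets, and 10 of 12 HPHC mice lay below the HFHC median. The diet effects at 4-wk were -0.11 ± 0.06 on this probe set and -0.02 ± 0.09 on 1426744_at, each with an adjusted p of 0.999 in limma. The diet effects at 4-wk and 2-d differed by 0.08 (95% confidence interval -0.09 to 0.25) on the brighter probe set and by 0.24 (-0.002 to 0.49) on the other.

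Scap, the escort protein and the member with the smallest changes, was similar in all groups. At 4-wk 1433520_at ran from 10.81 over 10.85 to 11.08 in HPHC livers and from 10.46 over 10.85 to 11.19 in HFHC livers. At 2-d it ran from 10.72 over 10.94 to 11.03 in HPHC and from 10.69 over 10.89 to 11.18 in HFHC livers. The HPHC values lay inside the range of the HFHC values at both durations. The diet effect was 0.06 (95% confidence interval -0.08 to 0.19) at 4-wk and -0.003 (-0.14 to 0.13) at 2-d, and the dim second probe set, 1442885_at, also stayed within 0.08 log2 units in the 4 comparisons of 2 groups.

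Insig1, which retains SCAP and is itself a target gene of the SREBPs, had diet effects of opposite sign at the 2 durations, neither past the threshold. At 4-wk it ran from 9.34 over a median of 9.91 to 10.16 in HPHC livers and from 8.86 over 9.74 to 10.16 in HFHC livers, and 9 of 12 HPHC mice lay above the HFHC median. At 2-d it ran from 8.84 over 9.46 to 10.13 in HPHC livers and from 9.21 over 9.65 to 10.32 in HFHC livers, and 7 of 11 HPHC mice lay below the HFHC median. The HPHC mice lay somewhat high at 4-wk and low at 2-d, with wide overlap both times. The log2 changes were 0.16 ± 0.14 at 4-wk and -0.24 ± 0.14 at 2-d, and their difference was 0.40 (95% confidence interval 0.01 to 0.79, unadjusted p = 0.0466, adjusted p = 1.0 in limma). Without arrays A01, A09 and A24 the change at 4-wk was 0.08 and the difference 0.26 (unadjusted p = 0.167), and with array weights they were 0.10 and 0.26 (unadjusted p = 0.148).

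Stard4, the cholesterol carrier, showed the same signs on all 3 probe sets. On the brightest, 1455011_at, levels at 4-wk ran from 9.62 over 10.02 to 10.48 in HPHC livers and from 9.08 over 9.94 to 10.28 in HFHC livers. At 2-d they ran from 9.52 over 9.71 to 10.12 in HPHC livers and from 9.60 over 9.90 to 10.21 in HFHC livers. Only the HFHC 4-wk mouse A24 stood far below the others, and the diets overlapped. The diet effects over the 3 probe sets were 0.12 to 0.15 at 4-wk and -0.29 to -0.16 at 2-d, and their difference was 0.28, 0.36 and 0.44, with unadjusted p of 0.0482, 0.0193 and 0.118 and an adjusted p of 1.0 each in limma. Over the 13 probe sets, 3 had an unadjusted p below 0.05 for a positive difference of the diet effects, those of Insig1 and 2 of Stard4, against 0.522% of all probe sets, and probe sets of 1 gene are not independent. Without A01, A09 and A24 none of these 3 had such a p and Srebf2 1426744_at did (0.22, unadjusted p = 0.0259), with differences on the 3 Stard4 probe sets of 0.21, 0.30 and 0.45 (unadjusted p = 0.105, 0.0538 and 0.078), and the change at 4-wk on the brightest was 0.04. With array weights that change was also 0.04, and the differences had unadjusted p of 0.0906, 0.0334 and 0.0858.

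The cholesterol synthesis genes, which SREBP-2 is known to activate, gave the same signs as Insig1 and Stard4. Of 17 measured genes, 17 had a positive diet effect at 4-wk with a median log2 change of 0.36, and 15 had a negative one at 2-d with a median of -0.24, beside medians of -0.02 and 0.01 over all genes. None of these genes passed the adjusted threshold of limma for diet, and at an unadjusted p below 0.05 there were 8 higher at 4-wk and, at 2-d, 7 lower and 1 higher, where 0.83% of all genes were higher at 4-wk and 1.62% lower and 2.04% higher at 2-d. Without A01, A09 and A24, 16 had a positive effect at 4-wk (median 0.26, with 6 below 0.05) and 14 a negative one at 2-d (median -0.19, with 5 below 0.05). The Kupffer cell markers also differed by diet at 4-wk, where all 11 had negative changes with a median of -0.33, of which 5 were below an unadjusted p of 0.05 and 2.16% of all genes were lower, and at 2-d all 11 were negative with a median of -0.13. None of them passed the adjusted threshold for diet, and their part in the list's change was not tested. Tm7sf2, a sterol reductase, averaged 10.95 ± 0.14 in HPHC and 10.57 ± 0.19 in HFHC livers at 4-wk (SD, n = 12 each), and Nsdhl, a sterol dehydrogenase, had a change of 0.39 ± 0.13 (SE) there. Fdps, which makes farnesyl diphosphate, averaged 9.99 ± 0.52 in HPHC (n = 11) and 10.66 ± 0.65 in HFHC livers (n = 12, SD) at 2-d, and Hsd17b7, a sterol ketone reductase, had a change of -0.33 ± 0.11 (SE). Of 21 lipogenesis genes, which SREBP-1c is known to activate, 0 passed for diet in limma, and at an unadjusted p below 0.05 there was 1 higher at 4-wk and there were 4 lower at 2-d. At 4-wk the smallest p were those of the desaturase Fads1 (0.32 ± 0.10) and the acyltransferase Agpat2 (-0.16 ± 0.08), and at 2-d those of the malic enzyme Me1 (-0.51 ± 0.16) and the fatty acid synthase Fasn (-0.54 ± 0.18). The signs in the cholesterol list were known from earlier results of these data and are no independent evidence for the members.

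Mylip, the ubiquitin ligase, had the largest duration effect among the brightest probe sets of the members. In HPHC livers it ran from 8.65 over a median of 9.72 to 9.98 at 4-wk and from 8.48 over 8.74 to 9.03 at 2-d. In HFHC livers it ran from 8.99 over 9.83 to 10.16 at 4-wk and from 8.18 over 8.73 to 9.08 at 2-d. In each diet 11 of 12 mice at 4-wk were above every 2-d mouse of that diet, and the exceptions were HPHC mouse B43 and HFHC mouse A13. Mylip was 1.93-fold higher at 4-wk than at 2-d within HPHC (log2 change 0.95 ± 0.11 SE, adjusted p = 1.04e-07 in limma) and 2.13-fold higher within HFHC (1.09 ± 0.11, adjusted p = 1.26e-09). Its diet effect was -0.13 (95% confidence interval -0.35 to 0.09) at 4-wk and 0.01 (-0.21 to 0.24) at 2-d.

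Markers of the sinusoidal endothelium, Kupffer cells and stellate cells moved with duration as Mylip did, and few of those of cholangiocytes and lymphocytes did. All 8 markers of the sinusoidal endothelium, the cells that line the liver's capillaries, passed as higher at 4-wk within HPHC and 7 of 8 within HFHC, with median log2 changes of 0.47 and 0.62. Among them, 2 examples picked after their values had been seen, Oit3 rose by 1.17 within HPHC and 1.28 within HFHC, and Pecam1 by 1.12 and 1.40. Of 11 Kupffer cell markers, 9 rose within HPHC and 11 within HFHC (medians 0.91 and 1.11), and 4 of 6 stellate cell markers rose within each diet (medians 0.52 and 0.51). Over all genes by brightest probe set, 6.04% passed within HPHC and 6.01% within HFHC. No marker of these 3 lists passed as lower. Of 4 cholangiocyte markers 0 passed on either diet (medians -0.12 within HPHC and -0.03 within HFHC), and of 5 lymphocyte markers 1 rose on each diet (medians 0.08 and 0.05).

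The summed level of the endothelial markers ran from 11.56 over a median of 12.31 to 12.60 in HPHC livers at 4-wk and from 11.44 over 11.52 to 11.97 at 2-d. In HFHC livers it ran from 11.73 over 12.40 to 12.50 at 4-wk and from 11.38 over 11.55 to 12.22 at 2-d. The mice at the lower ends at 4-wk were B43 and A13, the same 2 mice whose Mylip level was low, and the highest 2-d values belonged to B28 and A01, which also had the highest Mylip levels of their 2-d groups. Across 47 mice, as deviations from group means, Mylip followed the endothelial sum with Pearson's r = 0.828 and Spearman's rho = 0.665 (permutation p = 1e-05 each, the smallest that 100000 permutations can give, adjusted p = 0.00028 over 28 relations). Pearson's r was 0.937 and 0.919 in the HPHC and HFHC groups at 4-wk and 0.68 and 0.649 at 2-d. It was 0.83 without A17 and A18, the mice farthest from the Mylip median, and 0.677 without B43 and A13, which were left out after the plot had been seen.

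Mylip also followed the stellate cell sum (r = 0.631, rho = 0.543, permutation p = 4e-05 and 0.00018, adjusted p = 0.00056 and 0.00252), with r = 0.616 without A17 and A18 and r between 0.564 and 0.91 in the 4 groups. With the Kupffer cell sum r was 0.582 and rho 0.376 (permutation p = 0.00025 and 0.0117, adjusted p = 0.00233 and 0.0816), r was 0.588 without A17 and A18, and within the HPHC 2-d group r was -0.086. Without B43 and A13 r was 0.516 with the stellate cell sum and 0.367 with the Kupffer cell sum. With the hepatocyte sum r was 0.01 and rho 0.143 (permutation p = 0.948 and 0.344, adjusted p = 0.948 and 0.507). That sum ran only from 16.81 to 17.04 over all mice used, so that a low r with it says little. Of the 28 relations between 7 members and these 4 sums, chosen after the data had been seen, the endothelial and stellate ones of Mylip were those that passed by both r and rho. The part of these cells in the Mylip change was not tested. With the RNA quality measure as a covariate the Mylip change was 0.81 within HPHC and 0.93 within HFHC, and both still passed (adjusted p = 5.81e-05 and 6.76e-06 in limma).

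**Figure D3:**
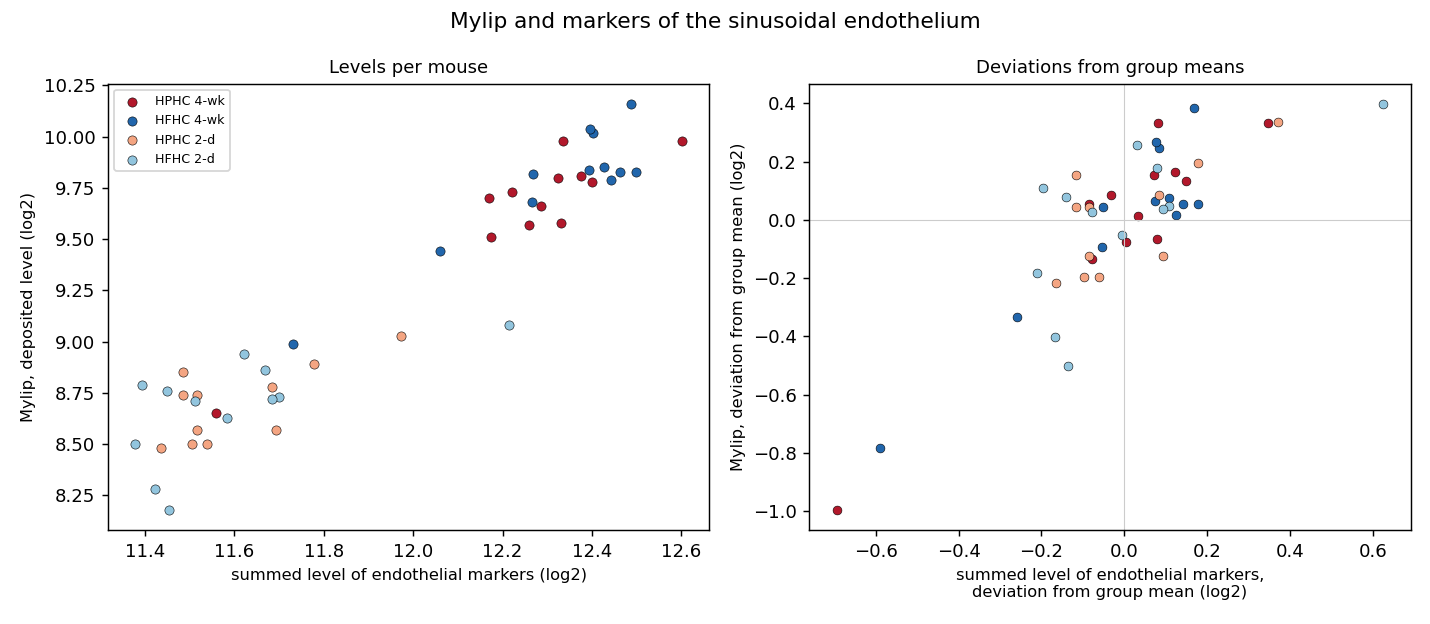
Mylip against the summed level of 8 sinusoidal endothelial markers, both on the log2 scale, with 1 point per mouse, as levels (left) and as deviations from the group means (right). The 4-wk mice lie above the 2-d mice except for B43 and A13, and mostly to their right. The 2-d mouse A01, at 12.215, lies to the right of 4-wk mice such as A19, B38 and B41. The deviations follow each other with r = 0.828.

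Insig2, the second retention protein and in liver the source of the fasting-induced transcript Insig2a in mice, was higher at 4-wk on its brightest probe set. On 1417982_at HPHC livers ran from 10.85 over a median of 11.42 to 12.03 at 4-wk and from 10.39 over 10.97 to 11.60 at 2-d. In HFHC livers it ran from 10.99 over 11.65 to 12.22 at 4-wk and from 10.74 over 10.94 to 11.42 at 2-d. The durations overlapped in both diets, with 4 of 12 and 8 of 12 mice at 4-wk above every 2-d mouse of their diet. The log2 change was 0.51 ± 0.14 within HPHC (1.43-fold, adjusted p = 0.0133 in limma) and 0.67 ± 0.13 within HFHC (1.59-fold, adjusted p = 0.000604).

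The remaining 2 Insig2 probe sets moved less and did not pass. Within HPHC 1417981_at and 1417980_a_at changed by 0.19 and 0.12, and within HFHC by 0.38 and 0.26, with adjusted p between 0.0691 and 0.777 in limma. With the RNA quality covariate the change on the brightest probe set was 0.46 within HPHC, which no longer passed (adjusted p = 0.188 in limma), and 0.61 within HFHC, which did (adjusted p = 0.046). For diet, all 3 probe sets had negative changes at both durations, from -0.38 to -0.24 at 4-wk and from -0.19 to -0.08 at 2-d. At 4-wk 1417981_at ran from 10.22 over 10.60 to 11.10 in HPHC livers and from 10.42 over 10.91 to 11.86 in HFHC livers, and 5 of 12 HPHC mice were below every HFHC mouse. That change, -0.38 ± 0.13, had an unadjusted p of 0.00543 and an adjusted p of 0.999 in limma.

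The duration effect on Stard4 depended on the probe set. On 1429239_a_at HPHC livers ran from 8.65 over 9.39 to 9.83 at 4-wk and from 7.11 over 8.12 to 8.70 at 2-d. In HFHC livers it ran from 8.08 over 9.32 to 9.83 at 4-wk and from 6.93 over 8.66 to 8.96 at 2-d. Of 12 mice at 4-wk, 11 within HPHC and 10 within HFHC were above every 2-d mouse of their diet. This probe set was 2.47-fold higher at 4-wk within HPHC (log2 change 1.30 ± 0.20, adjusted p = 1.12e-05 in limma) and 1.82-fold higher within HFHC (0.86 ± 0.19, adjusted p = 0.00234). With the RNA quality covariate these changes were 0.77 (adjusted p = 0.00863 in limma) and 0.25 (adjusted p = 0.881), so that the HFHC one no longer passed.

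The 2 brighter Stard4 probe sets changed less with duration. Within HPHC 1429240_at passed at 0.34 ± 0.11 (adjusted p = 0.0439 in limma), all 12 mice at 4-wk lying above the 2-d median, and 1455011_at did not at 0.28 ± 0.10 (adjusted p = 0.0868). Within HFHC they changed by -0.03 ± 0.11 and -0.01 ± 0.10 (adjusted p = 0.95 and 0.988 in limma). Insig1 changed by 0.35 ± 0.14 within HPHC (10 of 12 mice at 4-wk above the 2-d median) and by -0.06 ± 0.14 within HFHC, and neither passed (adjusted p = 0.144 and 0.908 in limma). The test of the difference between the duration effects of the 2 diets is the same as that of the diet effects above, and it passed for none of these probe sets.

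Srebf1, Srebf2 and Scap did not pass for duration. Srebf2 changed by -0.01 ± 0.06 within HPHC and -0.09 ± 0.06 within HFHC on its brighter probe set, and by 0.25 ± 0.09 and 0.01 ± 0.09 on 1426744_at, where all 12 HPHC mice at 4-wk lay above the 2-d median (adjusted p = 0.0706 in limma). Scap changed by -0.02 ± 0.07 and -0.08 ± 0.06 on its brighter probe set. Over the 13 probe sets the median log2 change with duration was 0.25 within HPHC and 0.01 within HFHC, beside -0.02 and -0.003 over all probe sets. At an unadjusted p below 0.05, 7 of 13 were higher within HPHC and 5 of 13 within HFHC, where 10.0% and 10.7% of all probe sets were.

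The genes of SREBP transport, cleavage and turnover, 28 of 30 listed genes measured, changed little. For 4-wk against 2-d, 3 rose within HPHC, while 2 rose and 1 fell within HFHC, with median log2 changes of -0.01 in both. Over all genes, 6.04% passed within HPHC and 6.01% within HFHC in either direction. Nploc4, a cofactor of the VCP segregase, rose by 0.32 ± 0.09 within HPHC and 0.34 ± 0.08 within HFHC (adjusted p = 0.0112 and 0.00666 in limma). Rnf145, a sterol-responsive ubiquitin ligase of the endoplasmic reticulum, rose by 0.45 ± 0.10 and Sar1b, a GTPase of the vesicles that leave this membrane, by 0.22 ± 0.05 within HPHC (adjusted p = 0.00362 and 0.00307). Within HFHC the ubiquitin ligase Rnf5 rose by 0.22 ± 0.07, and Syvn1, another one, fell by 0.35 ± 0.11 (adjusted p = 0.0309 and 0.0392). For diet none passed in limma, with 1 gene below an unadjusted p of 0.05 at 4-wk and 2 at 2-d, all lower. At that p 2.16% of all genes were lower at 4-wk and 1.62% at 2-d. Those of this list were Sec23b (-0.19 ± 0.09) at 4-wk and Sec13 (-0.22 ± 0.09) and Sar1b (-0.10 ± 0.05) at 2-d. All are parts of the COPII coat that carries SCAP and its cargo.

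Of 22 measured genes that act on Srebf1 transcription, such as liver X receptor, NF-Y and insulin signalling genes, 0 passed for duration within HPHC in limma and 3 fell within HFHC. Among all genes 6.04% and 6.01% passed in either direction. Within HPHC 1 of the list was higher and 7 were lower at an unadjusted p below 0.05 (9.75% and 7.75% of all genes). The 3 that fell within HFHC were the insulin receptor Insr (fell by 0.27 ± 0.08), its substrate Irs2 (fell by 0.23 ± 0.07) and the transcription factor Cebpb (fell by 0.36 ± 0.11), with adjusted p of 0.036, 0.0429 and 0.0285 in limma. For diet none passed in limma. The nuclear receptor Nr0b2 (SHP), a repressor induced by bile acids, averaged 9.45 ± 0.41 in HPHC and 9.89 ± 0.30 in HFHC livers at 4-wk (SD, n = 12 each, unadjusted p = 0.0025, adjusted p = 0.999 in limma). At 2-d the NF-Y subunit Nfyb had a change of -0.24 ± 0.11 (unadjusted p = 0.0306), the only gene of the list below 0.05. Next in the order of p were the retinoid receptor Rxra at 4-wk (0.07 ± 0.07, unadjusted p = 0.288) and the coactivator Ppargc1b at 2-d (0.26 ± 0.13, unadjusted p = 0.0526).

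Of 20 measured genes of sterol uptake and transport, 3 rose with duration within HPHC, while 3 rose and 2 fell within HFHC. Among all genes 6.04% passed within HPHC and 6.01% within HFHC in either direction. The lysosomal lipase Lipa rose by 0.50 ± 0.10 within HPHC and 0.41 ± 0.09 within HFHC, and Npc2, which hands cholesterol out of lysosomes, by 0.34 ± 0.07 and 0.29 ± 0.07. The retromer subunit Vps35 rose by 0.27 ± 0.08 and 0.28 ± 0.08. Within HFHC the lipoprotein receptor Lrp1 fell by 0.35 ± 0.08 and the sterol-binding protein Osbpl9 by 0.22 ± 0.07. The adjusted p of these changes lay between 0.000354 and 0.045 in limma. Macrophages also express Lipa and Npc2, and the Kupffer cell sum moved with duration as well. Its medians were 13.30 in HPHC and 13.70 in HFHC livers at 4-wk and 12.37 and 12.61 at 2-d. The part of Kupffer cells in the Lipa and Npc2 changes was not tested. For diet none passed in limma, with 1 gene higher at 4-wk and 2 higher and 2 lower at 2-d at an unadjusted p below 0.05. At that p 0.83% of all genes were higher at 4-wk, and 2.04% were higher and 1.62% lower at 2-d. Vldlr, a receptor that Mylip also targets, averaged 7.54 ± 0.10 in HPHC and 7.38 ± 0.17 in HFHC livers at 4-wk and 7.53 ± 0.14 and 7.34 ± 0.18 at 2-d (unadjusted p = 0.0121 and 0.00685). Beside it, the cholesterol ester hydrolase Nceh1 had a change of -0.20 ± 0.07 at 2-d (unadjusted p = 0.00684) and the sterol transporter Gramd1c one of -0.16 ± 0.10 at 4-wk (unadjusted p = 0.103).

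The target lists moved with duration more in number within HPHC. Of the 17 cholesterol synthesis genes 10 rose within HPHC and 1 within HFHC, with medians of 0.51 and -0.04. For these and the lipogenesis counts below, 6.04% of all genes passed within HPHC and 6.01% within HFHC in either direction. Pmvk, the phosphomevalonate kinase, was the one that passed in both, by 1.06 ± 0.15 and 0.46 ± 0.15, and Fdps rose by 1.41 ± 0.22 within HPHC. The others that rose within HPHC were Idi1, Msmo1, Cyp51, Hmgcs1, Nsdhl, Sc5d, Fdft1 and Tm7sf2, enzymes along the path to cholesterol, by 0.37 to 1.15. Of 21 lipogenesis genes 8 rose within HPHC and 4 within HFHC (medians 0.28 and 0.11), the largest being the malic enzyme Me1 at 1.30 ± 0.16 and 0.87 ± 0.16. The desaturases Scd1 and Fads2 and the elongase Elovl5 also rose within both diets, by 0.50 to 0.70 within HPHC and by 0.36 to 0.71 within HFHC, and Fasn, Fads1, Acss2 and Slc25a1 passed within HPHC, by 0.34 to 0.73. The difference of these effects between the diets passed for no gene of either list in limma, while 13 of 17 cholesterol synthesis genes and 3 of 21 lipogenesis genes had an unadjusted p below 0.05 for it, all positive, where 0.407% of all genes did in that direction. Without A01, A09 and A24 these counts were 12 and 5, and the cholesterol synthesis median within HFHC was 0.10.

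Across the 47 mice, as deviations from group means, Insig1 and Stard4 varied with the cholesterol synthesis genes, and the 2 probe sets of Srebf2 differed in this. Insig1 against the mean of the 17 genes gave r = 0.702 and rho = 0.648 (permutation p = 1e-05 each, adjusted p = 0.000117 and 0.000175 over 35 relations). Within groups r was 0.536 and 0.923 for HPHC and HFHC at 4-wk and 0.725 and 0.719 at 2-d, and it was 0.692 without the 2 mice farthest from the Insig1 median. It was 0.642 without A24 and B31, whose Insig1 levels deviated most from their group means. Stard4 gave r = 0.637 and rho = 0.717 (permutation p = 1e-05 each, adjusted p = 0.000117 and 0.000175), with r of 0.731 and 0.802 at 4-wk and 0.871 and 0.43 at 2-d, and r = 0.561 without A24 and B43. Insig1 and Stard4 followed each other with r = 0.675 and rho = 0.555 (permutation p = 1e-05 and 0.0001, adjusted p = 0.000117 and 0.00117), with r between 0.534 and 0.775 in the 4 groups and 0.654 without B26 and B31. Without A24 and B31 this r was 0.588.

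For the brighter Srebf2 probe set, 1452174_at, against the cholesterol synthesis mean r was 0.015 and rho 0.014 (permutation p = 0.919 and 0.927, adjusted p = 0.919 and 0.955). Within groups r was 0.063 and -0.517 for HPHC and HFHC at 4-wk and 0.321 and 0.323 at 2-d, and it was 0.142 without A11 and A21. For 1426744_at, examined after the data had been seen, r was 0.51 and rho 0.372 (permutation p = 0.00332 and 0.0136, adjusted p = 0.0133 and 0.0234 over 12 relations of the dimmer probe sets). Within groups its r was 0.313 and 0.381 for HPHC and HFHC at 4-wk and 0.564 and 0.603 at 2-d, and it was 0.334 without A01 and A09 and 0.363 without A01, A09 and A24, where r within the HFHC 2-d group was 0.098. Against the lipogenesis mean 1426744_at gave r = -0.078 and rho = 0.445. Only rho passed (adjusted permutation p = 0.621 for r and 0.00879 for rho). Without A01, A09 and A24 they were 0.557 and 0.604 (adjusted permutation p = 0.00132 and 0.00054). With the same arrays left out, cholesterol synthesis gave r = 0.363 and rho = 0.345, so that this probe set did not follow cholesterol synthesis alone. Srebf1 against the cholesterol synthesis mean gave r = -0.143 (permutation p = 0.399) and r = 0.289 without A06 and A09. One HFHC 2-d mouse, A09, stood apart with a cholesterol synthesis mean of 10.79 and a Srebf1 level of 10.83, while HFHC 4-wk mouse A24 had a mean of 8.999.

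**Figure D4:**
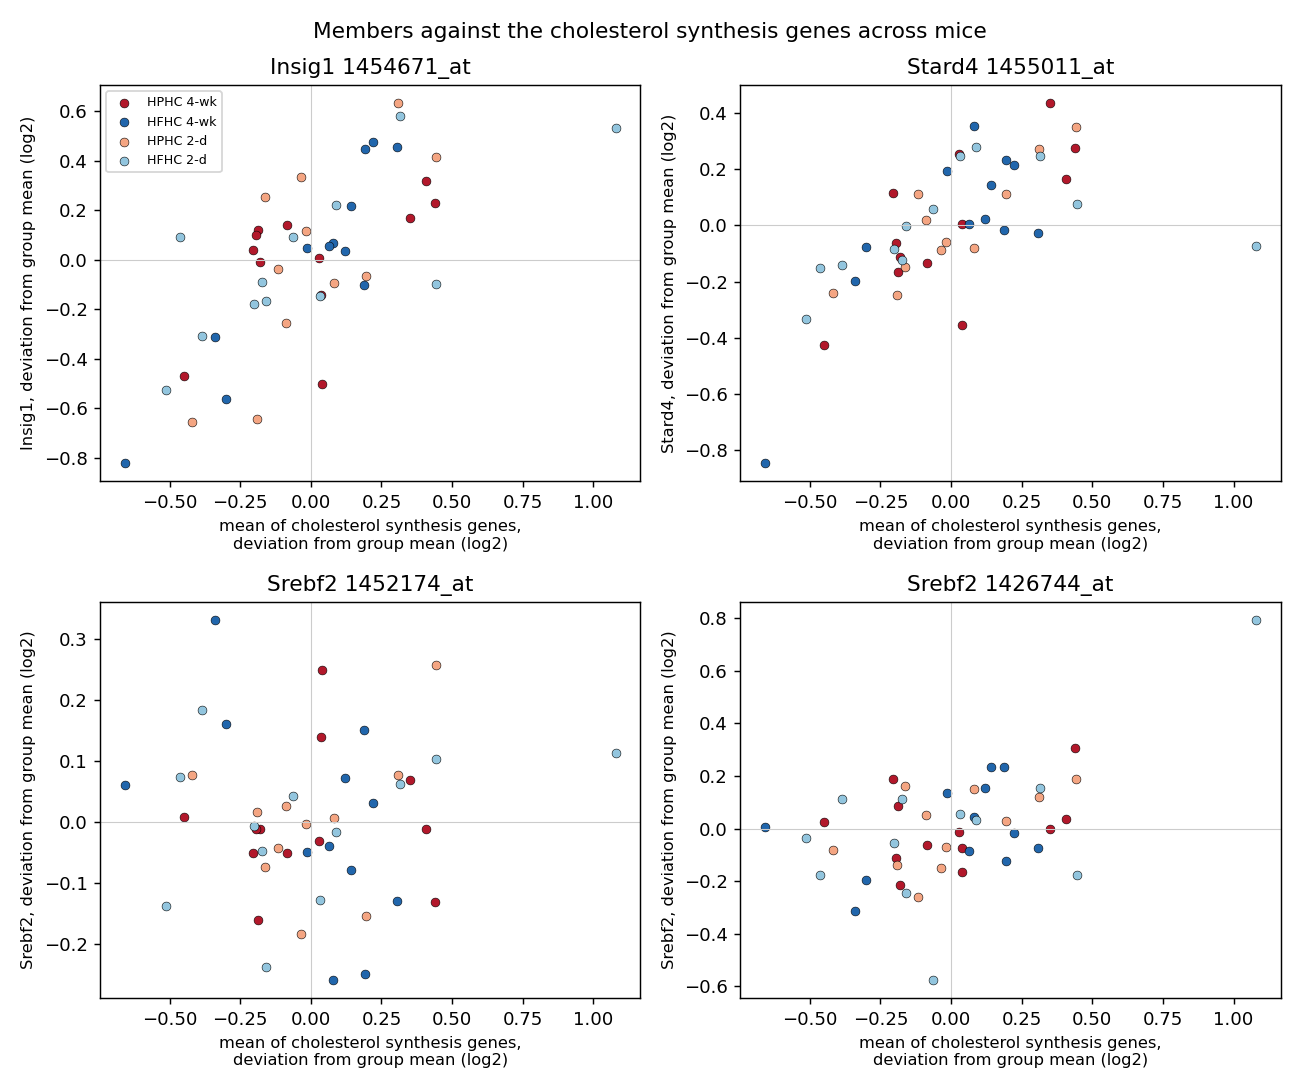
Deviation from the group mean, on the log2 scale, of Insig1, Stard4 and Srebf2 against that of the mean of 17 cholesterol synthesis genes, with 1 point per mouse. Insig1 and Stard4 rise along the horizontal axis (r = 0.702 and 0.637), while Srebf2 does so on 1426744_at (r = 0.51) and not on 1452174_at (r = 0.015).

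Srebf1 varied with the mean of 21 lipogenesis genes (r = 0.574, rho = 0.398, permutation p = 0.00025 and 0.00623, adjusted p = 0.00219 and 0.0311). Within groups r was 0.653 and 0.423 for HPHC and HFHC at 4-wk and 0.425 and 0.691 at 2-d, and it was 0.464 without A06 and A09. Without arrays A01, A09 and A24 r was 0.376, and it no longer passed (adjusted p = 0.0776 for r). The lipogenesis mean was also followed by Stard4 (r = 0.464, rho = 0.414, permutation p = 0.00052 and 0.00472, adjusted p = 0.00356 and 0.0275, r = 0.402 without A24 and B43, and r = 0.35 and 0.219 on its dimmer probe sets 1429240_at and 1429239_a_at, the second of which did not pass). For Insig1 it gave r = 0.42 and rho = 0.482 (permutation p = 0.00393 and 0.00113, adjusted p = 0.0153 and 0.00833), r = 0.353 without B26 and B31, r = 0.31 without A24 and B31, and r = -0.209 within the HFHC 2-d group. Without A01, A09 and A24 r for Insig1 was 0.606 in that group and 0.697 over all, so that r was larger with those arrays left out.

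Of the 35 relations, 9 passed by both r and rho, and the remaining 3 joined Scap or Srebf1 to other members. Scap and Stard4 gave r = 0.506 and rho = 0.458 (permutation p = 0.00061 and 0.00119, adjusted p = 0.00356 and 0.00833), with r between 0.328 and 0.635 in the groups and 0.415 without A15 and A24. Srebf1 and Scap gave r = 0.469 and rho = 0.384 (permutation p = 0.00359 and 0.0115, adjusted p = 0.0153 and 0.0448), with r between 0.271 and 0.655 in the groups and 0.428 without A06 and A09. Srebf1 and Stard4 gave r = 0.445 and rho = 0.385 (permutation p = 0.00282 and 0.0101, adjusted p = 0.0141 and 0.0443), with r between 0.131 and 0.797 in the groups and 0.564 without A06 and A09. The last 2 did not pass without A01, A09 and A24, at r = 0.356 and 0.317. Insig2 was not among the 9 on its brightest probe set. Its dimmer ones, 1417980_a_at and 1417981_at, were examined after the data had been seen. With cholesterol synthesis their r was 0.473 and 0.372 (adjusted permutation p = 0.00186 and 0.0144 over 12 relations). With lipogenesis it was 0.337 and 0.372 (adjusted permutation p = 0.0236 and 0.0144), and rho passed each time.

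Among all genes measured, those most like each member by Pearson's r over the 47 mice, again as deviations from group means, are given as a description. For Insig1 they were Pmvk (0.804), Cetn2 (0.771) and Hnrnpk (0.765), and for Stard4 the fatty acid synthase Fasn (0.744), Hs3st3b1 (0.737) and Mgam (0.728). For Srebf1 they were the phospholipid acyltransferase Lpcat3 (0.804), Amdhd1 (0.793) and Hoga1 (0.779). For Mylip they were Adgrf5 (0.854), the mannose receptor Mrc1 (0.849) and Slc43a3 (0.814), and Mrc1 is known from sinusoidal endothelium and macrophages. For Insig2 they were Stip1 (0.795), Sgk2 (0.79) and Gldc (0.788), for Scap Trmt2b (0.811), Fam120a (0.801) and Tbc1d9b (0.794), and for Srebf2 Sspo (0.606), Fabp12 (0.602) and Ccdc114 (0.6). The points share the array and its normalization.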

How the data were processed

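RNA from 48 livers was hybridised to Affymetrix mouse genome arrays, 1 for each mouse. The deposited log2 values are the authors' output of RMA, which corrects background, normalizes between arrays and summarises each probe set, and the log base was read from their range (3.16 to 14.81, with 2 decimals). Arrays have no sequencing depth, and precision is set by how many there are. B25 was left out as in the study, which gave 47 arrays.

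Of 45101 probe sets, 64 controls were left out. Genes were named through the platform annotation, in which 34945 of the tested probe sets have 1 symbol, 932 several and 9160 none. One coefficient for each group was fitted by lmFit and eBayes (trended prior) of limma 3.58.1 under R 4.3.3, two-sided, with Benjamini-Hochberg adjustment over 45037 probe sets and a threshold of 0.05. Simulated shifts of 0.5 and 1 log2 unit in the 2-d diet comparison were recovered for 82 of 100 and 100 of 100 probe sets, with 7 false among 189 calls, on 45037 probe sets.

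The brightest probe set, by its mean over 47 arrays, stood for a gene. Relations across mice used deviations from group means and 100000 permutations within groups, two-sided. The summed level of a marker list is the log2 of the sum of its linear values. All member probe sets were named, with the 3 most similar genes for each, and from each of 5 pathway lists the genes that passed or, where none did for diet, the 2 with the smallest p at each duration. Example markers were picked after their values had been seen. Of 116 listed pathway genes 108 were matched. The members and lists were chosen with earlier results of these data known. Alternatives were B25 included; A01, A09 and A24 left out; array weights; median centring; cyclic loess; brighter probe sets alone; separate fits; eBayes without trend; an RNA quality covariate; a replicate block; one-way ANOVA; means over probe sets; and permutation tests. Python 3.11.15, pandas 2.3.3, numpy 2.4.6 and scipy 1.17.1 were used, and promoters came from RefSeq on GRCm38.p6. Global Error Assessment and the pathway tools of the study were not used here.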

Additional observations from a re-analysis of the deposited data

How the results depend on the processing

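Of 467 alternative values of 38 member effects, 443 kept their direction and side of the threshold, 8 no longer passed, 1 unadjusted p rose above 0.05 in the permutation test, 4 newly passed and 11 changed sign. The sign changes were all of effects that did not pass. Scap for diet at 2-d gave 0.0083 with cyclic loess, and Mylip for diet at 2-d gave -0.0158 with B25 and -0.0055 with array weights. Within HPHC, the duration effect was 0.12 for Srebf2 as the mean of its probe sets and 0.0133 for Scap with B25. Within HFHC it was 0.027 for Insig1 with array weights and 0.0822 without A01, A09 and A24, and for Stard4 0.0449 with array weights, 0.0728 with the RNA quality covariate, 0.28 as the mean of its probe sets and 0.0696 without those 3 arrays. The cause was not tested.

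For duration within HPHC, Insig2 did not pass with the RNA quality covariate (0.46), as the mean of its probe sets (0.27) or by ANOVA (0.51, adjusted p = 0.0529). Stard4 on its brightest probe set passed with B25 (0.31), array weights (0.26), as the mean of its probe sets (0.64) and without A01, A09 and A24 (0.28), and 1429240_at did not pass with median centring (0.35), the covariate (0.42) or ANOVA (0.34). Within HFHC, Stard4 1429239_a_at did not pass with the covariate (0.25) or by ANOVA (0.86), and Srebf1 (0.28) missed 0.05 in the permutation test at an unadjusted p of 0.0562. Mylip passed under every alternative run for duration, at 0.81 to 0.98 within HPHC and 0.93 to 1.13 within HFHC.

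Probe sets called for diet at 2-d, 6 of all, were 12 among the brighter ones, 23 with cyclic loess, 0 by ANOVA and 1 with the replicate block, and for diet at 4-wk, 0 of all, 10 with array weights, 1 with cyclic loess and 2 with the block. For duration, 3012 within HPHC were 5545 with array weights and 622 with the covariate, and 3096 within HFHC were 464 with the covariate and 1659 by ANOVA. Member probe sets called, 4 within HPHC, were 2 with the covariate and 6 with B25, with array weights, and without A01, A09 and A24. Without A01, A09 and A24, the relations of Srebf1 with Scap (0.356), Stard4 (0.317) and lipogenesis (0.376) did not pass. Srebf2 with cholesterol synthesis (0.015) was -0.043 without those arrays and passed on 1426744_at (0.51), and Stard4 with lipogenesis did not pass on 1429239_a_at (0.219). The replicate numbers of the labels did not pair the mice at 4-wk, where same-numbered mice had a median correlation of deviations of -0.03 and 0 of 12 fitted their own number best. At 2-d this median was 0.265, with 7 of 11 above 0.1 and 3 of 11 fitting their own number best. What same-numbered 2-d mice had in common was not tested. With the number as a replicate block no member call was lost, and Mylip changed by 0.96 within HPHC.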
